A study of Mus musculus with 15 samples.

Results

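Ribosome footprints were counted for 9 genes of heme synthesis and breakdown in mouse liver, out of 20097 genes with a symbol in the deposited counts. The genes were chosen by symbol: Alas1, Alad, Uros, Urod, Cpox, Ppox and Fech for synthesis, and Hmox1 and Blvrb for breakdown. They are represented by 11 of 28167 RefSeq transcripts, because Alad and Blvrb each have 2. All 14 libraries came from whole liver of wild-type male C57BL/6N mice, 8 to 10 weeks old, that had been entrained to a light-dark cycle and then held in constant darkness (DD) for 24 h. Livers were then taken every 4 h from circadian time 0 (CT0) to CT24, from 2 mice at each of these 7 times. The p-values rest on differences between mice, and those of fitted curves also take in what the curve misses.

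Heme is an iron-bearing ring that serves as the prosthetic group of hemoglobin, cytochromes and many other enzymes. The liver makes it mainly for cytochromes P450, and ALAS1 (5-aminolevulinate synthase) performs the first and rate-limiting step in the mitochondrion. Enzymes that include ALAD, UROS and UROD then build and trim the porphyrin ring in the cytosol, and CPOX, PPOX and FECH complete it in the mitochondrion, where FECH inserts the iron. Heme oxygenases (HMOX1, which is inducible, and HMOX2) open the ring to biliverdin, and the biliverdin reductases BLVRA and BLVRB reduce biliverdin to bilirubin. The question asked of the data was whether the later enzymes follow the daily course of the rate-limiting one.

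Total counts per library ran from 40593197 to 90458783, with a median of 56446208. They were highest at CT8 and CT12, and 18 transcripts named Mup (major urinary proteins, a family of near-identical genes) held 34.2% to 57.6% of them. Levels are therefore given as CPM, counts divided by the size of the library, after TMM scaling, which sets libraries level on the bulk of transcripts. The lowest TMM factor was 0.736 (CT12 replicate 2) and the highest 1.46 (CT0 replicate 1), so scaling by the total count moves every transcript by that much between these libraries. All nonzero counts of CT16 replicate 2 were even numbers, and halving them changed no call among the 9 genes. The last pair of libraries is named CT24 while another of its labels gives CT00, and it was taken as CT24. In bulk liver, fewer cells of a type and less RNA per cell cannot be told apart. Hepatocyte markers (Alb, Apoa1, Ttr, Cps1, Hnf4a and Tat) summed to 32669 to 46114 CPM, Kupffer cell markers to 133 to 221 CPM, erythroid markers to 39.5 to 77.3 CPM, and endothelial markers to 86.3 to 134 CPM.

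Alas1 had a large 24 h rhythm in ribosome footprints, while on the TMM scale the time means of the other 8 genes differed by at most 1.75-fold. A cosine of 24 h period was fitted by edgeR (quasi-likelihood) to the counts of all 17299 transcripts that averaged 10 counts or more, and 11.3% of them were called at a Benjamini-Hochberg adjusted p under 0.05. All 9 genes passed the count filter, and 2 of 9 were called, Alas1 and Fech. The peak-to-trough difference is the height of the fitted curve. Its median was 0.38 on the log2 scale over the 9 genes, against 0.44 over all 17299 transcripts. With time as a factor of 7 levels in place of the cosine, 7.08% of the transcripts were called, and of the 9 genes only Alas1. JTK_CYCLE is the rank test named in the methods of the study. On the same CPM, at an adjusted P under 0.05, it called 16.7% of the transcripts, and of the 9 genes Alas1, Fech and Ppox. That adjusted P corrects for the phases tried within a transcript, and not for the number of transcripts as the Benjamini-Hochberg values do. With a Benjamini-Hochberg correction of JTK_CYCLE (q) the values were 0.0597 for Alas1, 0.0276 for Fech and 0.143 for Ppox. Scaling by the total count, under which edgeR called 8.25% of the transcripts and of the 9 genes only Alas1, left the difference of Alas1 at 3.14 but changed those of the others. It raised them to 0.54 for Alad, 1.00 for Uros, 0.43 for Urod, 0.88 for Cpox, 0.81 for Hmox1 and 0.78 for Blvrb, and lowered them to 0.29 for Ppox and 0.20 for Fech. The differences given below are on the TMM scale. For single genes they and the phases come from the edgeR fit, and their SEs from a separate least-squares cosine fit to log2 CPM.

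**Figure D1:**
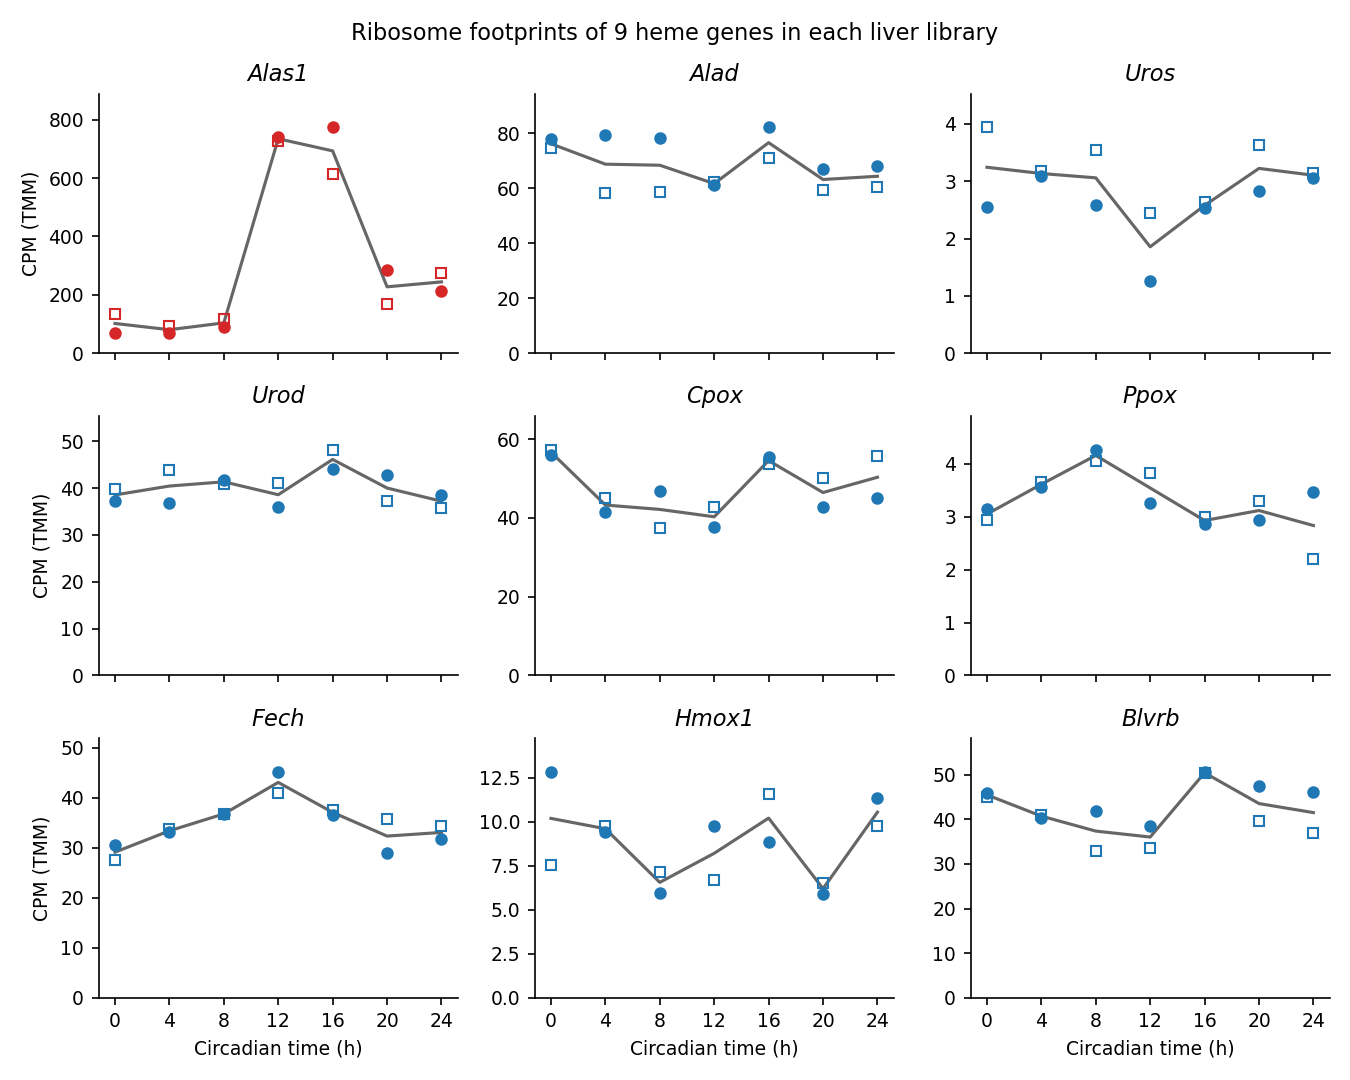
Ribosome footprints of the 9 genes, in CPM after TMM scaling, against circadian time in hours. Filled circles are replicate 1, open squares replicate 2, and the line joins the means of 2 mice. Alas1 (red) was between 68.5 and 133 CPM from CT0 to CT8 and between 613 and 774 CPM at CT12 and CT16, whereas the other genes changed by at most 1.75-fold between their lowest and highest time means.

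Alas1 (NM_020559) lies on the minus strand of chromosome 9 at 106233455 to 106247954 (GRCm38.p6) and has 11 exons. Its coding sequence of 1929 nt starts in the window chr9:106246940-106246969, shown here 5′ to 3′ on the coding strand with the start codon in capitals.
Alas1 start: cactttgcaaacATGgagactgtcgttcgc

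Its level was 70.1 and 133 CPM at CT0, 68.5 and 92.0 CPM at CT4, and 89.4 and 118 CPM at CT8. It was 742 and 728 CPM at CT12 and 774 and 613 CPM at CT16. At CT20 it was 286 and 168 CPM, and at CT24 it was 213 and 275 CPM. The 4 libraries of CT12 and CT16 were all above the other 10, and the 6 libraries of CT0, CT4 and CT8 were all below those of CT20 and CT24. The time mean rose from 104 ± 20.0 CPM at CT8 to 735 ± 9.57 CPM at CT12 (SD, n = 2 mice), and the highest time mean was 9.16-fold the lowest, which was 80.2 ± 16.6 CPM at CT4.

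The fitted curve of Alas1 spanned 3.08 log2 units from trough to peak (SE 0.57), with a phase of 15.5 h (SE 0.678 h). The edgeR adjusted p was 0.000290. The least-squares fit that gave the SEs put the difference at 3.12 and the phase at 15.4 h. With time as a factor the edgeR adjusted p was 9.08e-07. Fitted by least squares to each replicate series alone, the phase was 15.6 h in the first mice and 15.2 h in the second mice. Among the 17299 transcripts, 112 had a difference at least as large, and 88 of these were called. The cosine described the course only in part. Observed minus fitted log2 levels were -0.77 and 0.14 in the CT0 libraries, -0.24 and 0.18 in those of CT4, -0.84 and -0.44 in those of CT8, and 0.67 and 0.64 in those of CT12. They were 0.17 and -0.17 in those of CT16, -0.29 and -1.05 in those of CT20, and 0.82 and 1.19 in those of CT24.

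CT0 and CT24 are a day apart, and Alas1 was not the same at both. The mean was 102 ± 44.5 CPM at CT0 and 244 ± 44.1 CPM at CT24 (SD, n = 2 mice), a difference of 1.32 on the log2 scale without overlap between the mice. No test was made of this pair, in which 2 mice were set against 2. Such separation was common, since the CT0 and CT24 mice did not overlap in 37.6% of all transcripts and in 4 of the 9 genes. The other 3 had log2 differences of -0.24 (Alad), -0.18 (Cpox) and 0.18 (Fech).

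The promoters of the genes were searched because Alas1 moved so much more than the others. RefSeq promoter windows (GRCm38.p6, from 250 bases before to 50 bases after a transcript start) were at hand for 7 of the 9 genes, 11 windows in all. The letters searched on both strands were CACGTG, the E-box bound by CLOCK and BMAL1, AGGTCA, the core of sites of REV-ERB and ROR receptors, TTANGTAA, the D-box, TGACGTCA, the cyclic AMP response element, TGACNNNGC, the antioxidant response element, and CGCNTGCG, the core of the site of nuclear respiratory factor NRF1. Of 32851 windows of the same length in the table, 7.15% held the E-box, 16.3% AGGTCA, 2.32% the D-box, 1.79% the cyclic AMP element, 12.4% the antioxidant element and 8.21% the NRF1 letters. The Alas1 windows held none of the first 5 sets of letters and held the NRF1 letters at 2 places. These start 1 and 30 bases after the first base of the transcript counted here, to which the labels below refer. From the transcript start of the other Alas1 window the same places lie 223 and 194 bases upstream. E-box letters were found in front of Alad, Urod and Uros, and NRF1 letters also in front of Uros and Cpox. As in Alas1, no E-box letters were found in the windows of Cpox, Ppox and Blvrb, and those of Ppox and Blvrb held none of the 6 sets. A match is a description of the sequence, and binding was not measured here. The stretches with E-box or NRF1 letters are shown to compare Alas1 with its neighbours in the pathway, 5′ to 3′ on the strand of the gene, with the matched letters in capitals. The Alas1 pair lies at chr9:106247935-106247964 and chr9:106247906-106247935 (minus strand), the Alad pair at chr4:62519920-62519949 and chr4:62520151-62520180 (minus), the Urod stretch at chr4:116994445-116994474 (minus), the Uros stretches at chr7:133709516-133709545 and chr7:133709323-133709352 (minus), and the Cpox stretch at chr16:58670157-58670186 (plus).
Alas1 NRF1 letters, at the start: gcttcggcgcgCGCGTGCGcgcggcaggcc
Alas1 NRF1 letters, downstream: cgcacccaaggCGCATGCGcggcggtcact
Alad E-box, start of the shorter 5′UTR: ccgccccgccccCACGTGggcttgcgcttt
Alad E-box, start of the longer 5′UTR: gctccgaatgccCACGTGgaccccctcggg
Urod E-box: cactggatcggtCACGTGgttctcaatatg
Uros E-box: CACGTGtgctttctcacctcgtccacgatt
Uros NRF1 letters: cggtcacactgCGCCTGCGcgagtcccgcc
Cpox NRF1 letters: cacaggaggccCGCGTGCGagcagcaggac

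ALAD joins 2 molecules of aminolevulinate and is the enzyme next after ALAS1. Alad (chromosome 4, 62505984 to 62520063) was measured at 58.1 to 82.1 CPM, with a median over the 14 libraries of 67.5 CPM. Its lowest time mean was 61.6 ± 0.730 CPM at CT12, the time of the highest Alas1 mean, and its highest was 76.5 ± 7.87 CPM at CT16 (SD, n = 2 mice). The peak-to-trough difference was 0.06 on the log2 scale (SE 0.15, edgeR adjusted p = 0.966). It lay between 0.02 (without CT12 replicate 2) and 0.17 (without CT8 replicate 1) when single libraries were left out. The RefSeq transcripts NM_008525 and NM_001276446 share the whole coding sequence of 993 nt and had equal coding counts in 14 of 14 libraries, so their counts cannot be separated there.

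UROS closes the porphyrin ring and UROD trims its side chains. Uros (chromosome 7, 133686355 to 133709295) was sparse, with 102 to 245 counts per library. It was read at 1.26 and 2.45 CPM at CT12 and at 2.53 to 3.94 CPM in the other libraries, so both CT12 mice lay below all others. Its peak-to-trough difference was 0.57 on the log2 scale (SE 0.25) with a phase of 0.838 h, and the edgeR adjusted p was 0.276. Without CT12 replicate 1 the difference was 0.33. On CPM by the total count, where JTK_CYCLE called 17.6% of the transcripts, its adjusted P for Uros was 0.00763, against 0.194 on TMM-scaled CPM. Urod (chromosome 4, 116989965 to 116994413) was read at 35.8 to 48.2 CPM, and its time means ran from 37.2 ± 1.95 CPM at CT24 to 46.1 ± 2.93 CPM at CT16. Its difference was 0.15 on the log2 scale (SE 0.09, edgeR adjusted p = 0.682), and 0.08 without CT16 replicate 2.

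CPOX and PPOX perform successive oxidations of the ring. Cpox (chromosome 16, 58670208 to 58680391) was read at 37.5 to 57.3 CPM, with its lowest mean of 40.3 ± 3.49 CPM at CT12 and its highest of 56.7 ± 0.883 CPM at CT0 (SD, n = 2 mice). Its difference was 0.38 on the log2 scale (SE 0.14) with a phase of 20.8 h and an edgeR adjusted p of 0.203. Ppox (chromosome 1, 171276992 to 171281186) had 123 to 341 counts per library and the lowest density per length. It was at 4.26 and 4.05 CPM at CT8, above all other libraries, and at 2.20 to 3.83 CPM elsewhere. Its difference was 0.48 on the log2 scale (SE 0.15) with a phase of 8.09 h and an edgeR adjusted p of 0.197. JTK_CYCLE gave Ppox an adjusted P of 0.0153 on TMM-scaled CPM and 0.861 on CPM by the total count.

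Fech, on chromosome 18, encodes the last enzyme, ferrochelatase. Its level was 30.6 and 27.6 CPM at CT0, 33.1 and 33.7 CPM at CT4, and 36.7 and 36.8 CPM at CT8. It was 45.1 and 41.0 CPM at CT12, 36.6 and 37.5 CPM at CT16, 28.9 and 35.8 CPM at CT20, and 31.7 and 34.4 CPM at CT24. Both CT12 mice lay above all others. The peak-to-trough difference was 0.42 on the log2 scale (SE 0.08), a 1.33-fold change against 8.47-fold for Alas1, and the phase was 11.8 h (SE 0.813 h). The edgeR adjusted p was 0.0404. This call was weak, since scaling by the total count gave an adjusted p of 0.836. By the total count Fech was at 44.7 and 34.6 CPM at CT0 and at 40.4 and 30.2 CPM at CT12. Without single libraries the edgeR adjusted p was 0.0692 and 0.0972 (CT0 replicates 1 and 2), 0.0640 and 0.0606 (CT4 replicates 1 and 2), 0.0587 (CT8 replicate 1), 0.147 and 0.0884 (CT12 replicates 1 and 2), 0.0543 (CT16 replicate 2) and 0.0617 (CT24 replicate 1). Without both mice of a time it was 0.165 for CT0, 0.0947 for CT4, 0.0704 for CT8, 0.366 for CT12 and 0.0615 for CT16. The difference of Fech stayed between 0.36 and 0.46 without single libraries and between 0.34 and 0.49 without single times. The rhythm of Alas1 was called in each of these fits.

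**Figure D2:**
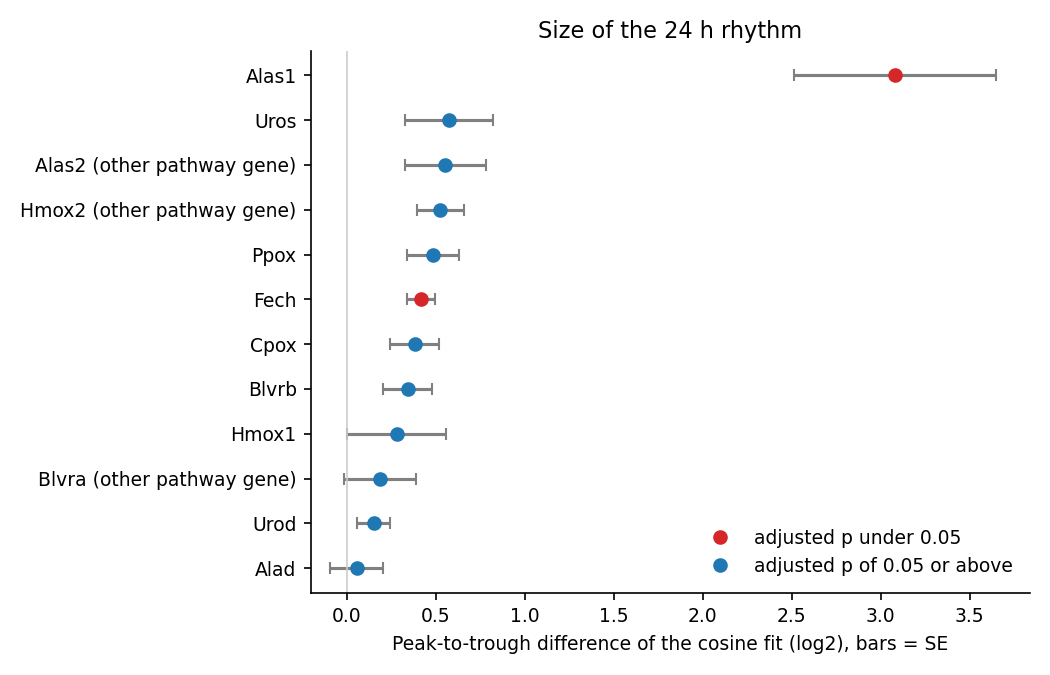
Peak-to-trough difference of the 24 h cosine fit, on the log2 scale, for the 9 genes and for 3 other genes of the pathway. Points are the edgeR estimates, bars the SE of a least-squares cosine fit to log2 CPM, and red marks an adjusted p under 0.05. On the TMM scale Alas1 stands at 3.08 and all others lie between 0.06 and 0.57.

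Levels of different genes were compared as CDS RPKM, the CPM of coding reads per kilobase of coding sequence, on the TMM scale. By this measure the median over the 14 libraries was 96.6 for Alas1, 63.5 for Blvrb, 62.6 for Alad, 36.2 for Urod, 32.3 for Cpox, 27.2 for Fech, 9.05 for Hmox1, 3.10 for Uros and 1.99 for Ppox. The ranges of Blvrb and Alad (48.8 to 77.8 and 53.2 to 76.7 RPKM) overlapped, as did those of Cpox and Fech (27.0 to 40.0 and 21.3 to 34.5), those of Urod and Cpox (up to 43.2 for Urod) and those of Uros and Ppox (1.21 to 4.07 and 1.14 to 2.61). Alas1 ran from 34.4 to 388 RPKM, so its place in the order changed with the hour.

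Within a library, the ratio of Alas1 to an enzyme does not depend on how libraries are scaled. Alas1 was read at 0.480 to 0.968 times the CDS RPKM of Alad in the CT0 and CT4 libraries and at 6.51 ± 0.202 times at CT12 (SD, n = 2 mice). Against Urod the ratio went from 1.11 ± 0.102 at CT4 to 10.9 ± 1.16 at CT12, against Cpox from 1.31 ± 0.551 at CT0 to 12.8 ± 1.10 at CT12, and against Fech from 1.57 ± 0.309 at CT4 to 12.2 ± 2.12 at CT16. Against the sparse Uros it went from 12.1 ± 1.69 at CT4 to 231 ± 113 at CT12, and against Ppox from 19.2 ± 3.78 at CT4 to 202 ± 41.8 at CT16. Set against the summed CDS RPKM of the 6 later enzymes, Alas1 was at 0.204 to 0.392 from CT0 to CT8, at 1.69 to 2.44 at CT12 and CT16, and at 0.534 to 0.905 at CT20 and CT24. Only the 4 libraries of CT12 and CT16 had more Alas1 than all 6 together.

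The log2 ratio of each later enzyme to Alas1 was fitted with limma, and 6 of 6 were called, with adjusted p from 4.20e-07 for Uros to 1.28e-05 for Fech. These ratios all carry the rhythm of Alas1, and 99.8% of all transcripts were called in the same fit, so the count says nothing particular of the later enzymes. Their differences in the ratio ran from 2.89 (Fech) to 3.45 (Uros) on the log2 scale, and the phase of Alas1 over the enzyme ran from 15.0 h (Cpox) to 15.9 h (Fech).

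**Figure D3:**
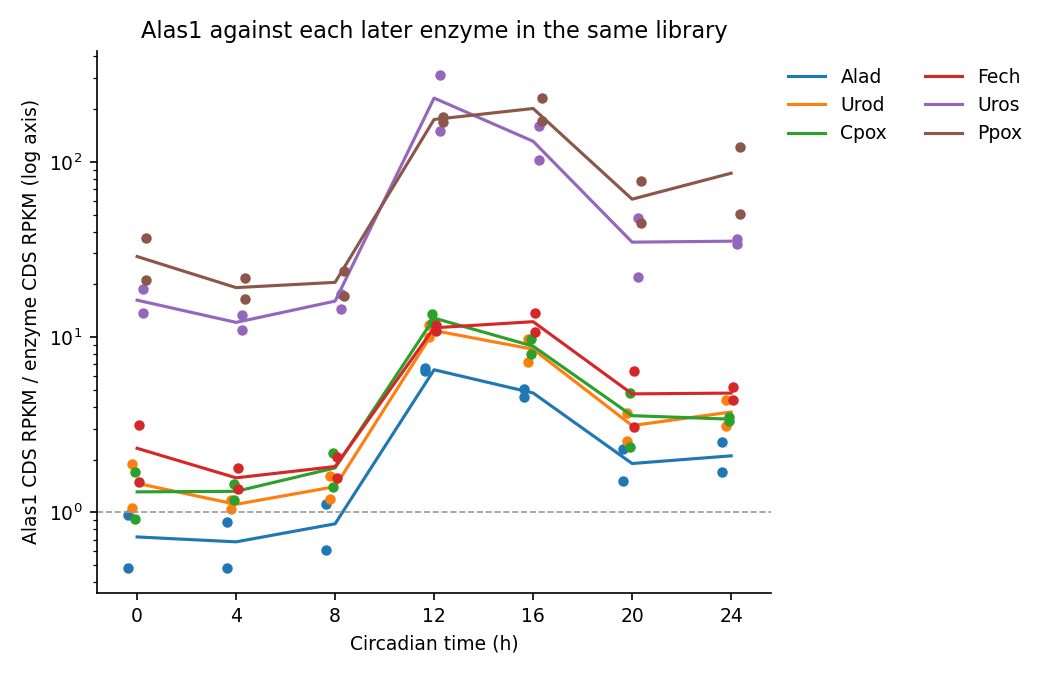
CDS RPKM of Alas1 divided by that of each later enzyme in the same library, on a log axis, against circadian time in hours. Points are single libraries and lines join the means of 2 mice. The dashed line marks equal density, which only Alad and 1 library of Cpox fell below, and all 6 ratios step up between CT8 and CT12.

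HMOX1 opens the heme ring, and in the liver it is known from Kupffer cells, the resident macrophages that take up aged red cells, as well as from stressed hepatocytes. Hmox1 (chromosome 8, 75093618 to 75100593) was read at 5.88 to 12.8 CPM, with 246 to 789 counts per library. The 2 mice of CT0 stood at 12.8 and 7.56 CPM, and the lowest pair was 5.88 and 6.52 CPM at CT20. The difference was 0.28 on the log2 scale (SE 0.28, edgeR adjusted p = 0.707), and 0.14 without CT0 replicate 1. The summed level of the 12 Kupffer cell markers was 182 to 221 CPM at CT0, 133 to 170 CPM at CT16, 138 to 171 CPM at CT20 and 179 to 206 CPM at CT24, while the means of Hmox1 at these times were 10.2, 10.2, 6.20 and 10.5 CPM. At CT4, CT8 and CT12 the sum was 181 to 192, 162 to 201 and 174 to 197 CPM. The means of Hmox1 there were 9.60, 6.56 and 8.21 CPM. Over the 14 libraries, which share time and scaling, Pearson's r between log2 Hmox1 and this log2 sum was 0.486. Of the 12 markers, 0 were called by edgeR (11.3% of all transcripts) and 0 by JTK_CYCLE on TMM-scaled CPM (16.7%). On CPM by the total count JTK_CYCLE called 2, Clec4f and Adgre1, a share near the 17.6% of all transcripts. Their part in the level of Hmox1 was not tested.

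BLVRB reduces biliverdin IXβ and flavins. Blvrb (chromosome 7, 27447978 to 27465981) was read at 32.8 to 50.6 CPM, and its time means ran from 36.0 ± 3.63 CPM at CT12 to 50.4 ± 0.222 CPM at CT16 (SD, n = 2 mice). The CT16 mice, at 50.6 and 50.3 CPM, lay above all others. Its difference was 0.34 on the log2 scale (SE 0.14) with a phase of 19.6 h and an edgeR adjusted p of 0.286. The file lists a second transcript with another start codon, and of its 5′UTR of 312 nt, 179 nt are coding in the first transcript, so reads there count as coding for one and as 5′UTR for the other. Its whole coding sequence of 363 nt lies inside that of the first, which has 621 nt. The windows below (chr7:27448106-27448135 and chr7:27459565-27459594, plus strand) hold the start codons in capitals.
Blvrb start, NM_144923: ggaccccgcagcATGactgtcaagaagatc
Blvrb start, NM_001290525: cccactacagtaATGtccgagggcacccgg

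Of 3 other genes of the pathway, Hmox2, Blvra and Alas2, 0 were called by edgeR, against 11.3% of all transcripts, and 0 with time as a factor, against 7.08%. Hmox2, the constitutive heme oxygenase, had a difference of 0.53 on the log2 scale with a phase of 7.96 h and an edgeR adjusted p of 0.0545, and JTK_CYCLE gave it an adjusted P of 0.00290 on TMM-scaled CPM and of 1 on CPM by the total count. Blvra, the main biliverdin reductase, had a difference of 0.19 (edgeR adjusted p = 0.810). Alas2, the synthase of red cell precursors, was read at 19.4 to 41.5 CPM, and its difference was 0.55 with a phase of 0.514 h (edgeR adjusted p = 0.185, and 0.0389 by the total count). On CDS RPKM the median of Alas2 was 18.3, against 96.6 for Alas1. Of 13 erythroid markers 10 were in the annotation, where 2 pairs of globin names (Hbb-bs with Hbb-b1, Hbb-bt with Hbb-b2) had the same counts and were summed once. The summed level of the 7 left without Alas2 had a median of 23.3 CPM and reached 41.9 CPM. Over the 14 libraries Pearson's r between log2 Alas2 and this log2 sum was 0.123, and 0.725 when Alas2 itself was in the sum. The red cell membrane gene Slc4a1 was close to 0, with a mean of 2.29 counts per library. The beta globin gene Hbb-bs was read at 13.5 to 38.4 CPM.

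Footprints in the 5′UTR were counted apart from those in the coding sequence. Over all libraries they made up 1.88% of the reads of Alas1, 6.45% of Alad, 15.6% of Uros, 4.69% of Cpox, 13.9% of Ppox, 0.720% of Fech, 10.8% of Hmox1 and 4.81% of Blvrb. Urod had 25 such reads in all, in the 25 nt that the file gives as its 5′UTR. Per nucleotide, the density in the 5′UTR was 0.193 times that in the coding sequence for Alas1, 0.408 times for Uros, 0.724 times for Ppox and 0.799 times for Hmox1. An upstream open reading frame (uORF) is an ATG with a stop codon in frame before the main start. In the annotation Ppox had 1, of 15 nt, and Uros had 1, of 57 nt. None was found in the 5′UTRs of Alas1, Alad, Cpox, Fech, Hmox1, Urod and the main transcript of Blvrb. The 5′UTR of Alas1 held 1 upstream ATG, without a stop codon in frame before the main start. For Uros, Urod and Fech the UTR lengths of the file and of this annotation differ, so their uORF counts may not describe the transcript that was counted.

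The 5′UTR share of Alas1 ranged from 0.923% to 4.23% over the 14 libraries and that of Hmox1 from 4.26% to 17.9%. Uros had 3 of 179 reads there in CT24 replicate 2 (1.68%, Wilson 95% interval 0.572% to 4.81%) and 66 of 245 in CT0 replicate 2 (26.9%, 21.8% to 32.8%), and these intervals cover counting error only. Whether this share changed with time was tested by limma on the log2 of 5′UTR over CDS counts, for the 8 genes that averaged 10 counts or more in each of the regions, all but Urod. Of these 8, 0 were called, and 0 had an unadjusted p under 0.05, the lowest being 0.0859 for Alad. Over all 7640 transcripts tested, 0% were called and 377 had an unadjusted p under 0.05. The Wilson 95% intervals of the share of Alas1 did not overlap between the mice of a time at 5 of 7 times. The mice were farthest apart at CT20, with 4.23% (3.88% to 4.60%) and 1.53% (1.31% to 1.79%), and at CT24 they had 1.56% and 1.57%. At each time from CT0 to CT20 the share of Alas1 was higher in replicate 1 than in replicate 2, and that of Fech was so at every time.

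**Figure D4:**
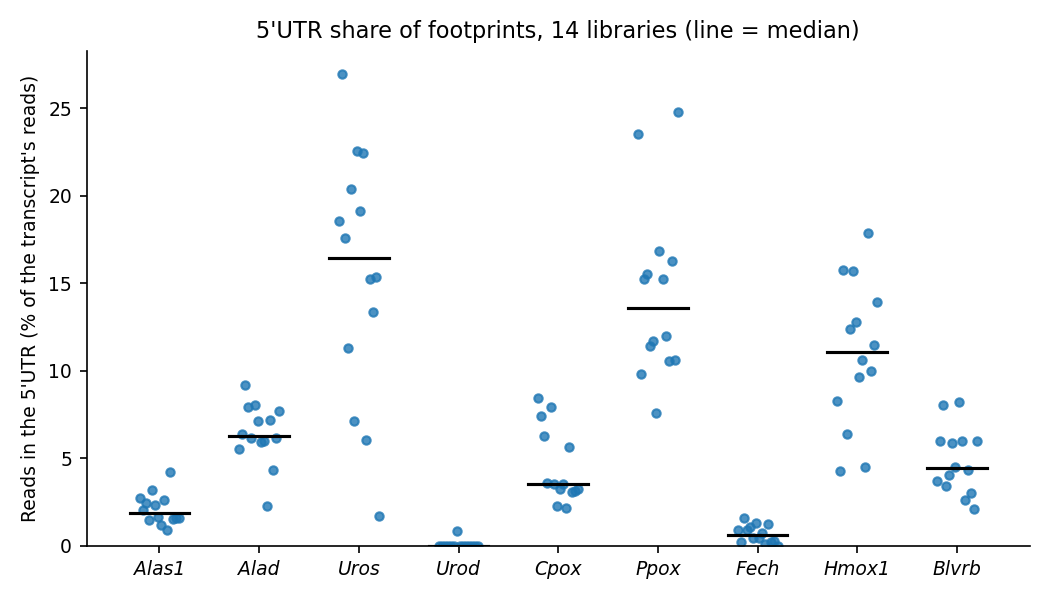
Share of the reads of a transcript that lay in its 5′UTR, in percent, for the 9 genes. Each point is a library and each bar the median of 14 libraries. Medians run from 0% for Urod to 16.5% for Uros, and the sparse genes Uros, Ppox and Hmox1 spread most.

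Among 8221 genes that averaged 100 counts or more, the 5 whose log2 CPM followed Alas1 most closely over the 14 libraries were Lonrf1 (Pearson's r = 0.931), Pdxk (0.923), Cyp7a1 (0.923), Nampt (0.917) and Map2k3 (0.912). The libraries share time and scaling, and the values are descriptive. LONRF1 is a RING finger protein, PDXK makes pyridoxal phosphate, CYP7A1 is the rate-limiting enzyme of bile acid synthesis, NAMPT makes the NAD precursor NMN, and MAP2K3 is a kinase of the p38 pathway. Their phases lay between 14.5 h (Map2k3) and 16.4 h (Pdxk). Their peak-to-trough differences were 2.49 for Lonrf1, 0.95 for Pdxk, 2.74 for Cyp7a1, 2.39 for Nampt and 0.58 for Map2k3 on the log2 scale, all smaller than that of Alas1.

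Factors known to act on Alas1, on Hmox1 or on their proteins were called by edgeR in 7 of 15 cases, against 11.3% of all transcripts, with a median difference of 0.56 on the log2 scale against 0.44 over all. The 4 with the largest differences were Npas2, Nr1d1, Arntl and Clpx. Clpx, a mitochondrial unfoldase that acts on ALAS proteins, was lowest at CT12, the time of the highest Alas1 mean. It was read at 93.5 and 112 CPM at CT0, 115 and 117 CPM at CT4, 38.0 and 43.0 CPM at CT8, 19.7 and 17.1 CPM at CT12, 34.0 and 33.7 CPM at CT16, 70.6 and 93.4 CPM at CT20, and 102 and 124 CPM at CT24. At CT8 it was already low while Alas1 had not yet risen, and at CT16 both its mice lay above those of CT12. Its difference was 2.53 with a phase of 0.676 h, against 15.5 h for Alas1. Nr1d1, which encodes the heme-binding repressor REV-ERBα, peaked at 69.8 and 49.5 CPM at CT8 and was at 1.43 and 1.72 CPM at CT20, with a phase of 8.54 h. Arntl, which encodes BMAL1, had a phase of 23.0 h and a difference of 3.93. Npas2, a heme-binding partner of BMAL1, had a mean of 2.03 CPM at CT4 and no reads in either CT12 library, at least 45.6-fold higher at CT4 when 3 counts per library are taken as the floor. The other 3 that were called were Bach1 (a heme-sensing repressor of Hmox1, phase 12.3 h), Foxo1 (11.8 h) and Ppargc1a (12.0 h). Under the total count these 3 were not called (adjusted p of 0.0857, 0.581 and 0.139), which left 4 of 15 against 8.25% of all transcripts. Without both mice of CT12 they were also not called (0.0662, 0.236 and 0.394). Without CT12 replicate 1 alone Foxo1 was at 0.0527 and Ppargc1a at 0.269, and Ppargc1a was at 0.0753 without CT0 replicate 2, 0.0560 and 0.0550 without CT4 replicates 1 and 2, 0.0645 without CT8 replicate 2, 0.0561 without CT16 replicate 2 and 0.0664 without CT24 replicate 1.

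Heme proteins of hepatocytes and their electron donors were called in 7 of 15 cases, against 11.3% of all transcripts, with a median difference of 0.49 on the log2 scale against 0.44 over all. Under the total count 6 of 15 were called, against 8.25% of all transcripts, and 5 genes were called on both scales. Tdo2 (adjusted p = 0.355) and Cyp2e1 (0.0931) were lost there and Cyp51 (0.0333) was gained. The 4 with the largest differences were Cyp4a14 (2.77, phase 20.0 h), Cyp7a1 (2.74, 15.4 h), Por (2.18, 14.8 h) and Cyp2a5 (2.16, 15.1 h). Por, the reductase that feeds electrons to P450 enzymes and to heme oxygenase, went from 59.3 and 73.7 CPM at CT4 to 129 and 123 CPM at CT8 and to 397 and 268 CPM at CT16. Cyp2a5 went from 51.1 and 52.3 CPM at CT4 to 161 and 127 CPM at CT8 and to 390 and 270 CPM at CT16. Cyp7a1 was read at 17.4 and 11.7 CPM at CT4 and at 22.6 and 36.8 CPM at CT8. Cyp4a14 varied between mice, with 199 and 37.9 CPM at CT16, and JTK_CYCLE did not call it (adjusted P = 0.0767). Its edgeR adjusted p of 0.0305 rose to 0.0601 without CT4 replicate 2, to 0.0915 and 0.111 without CT8 replicates 1 and 2, and to 0.0623 and 0.0650 without CT12 replicates 1 and 2. Cyp7a1, Por and Cyp2a5 were called whichever single library was left out. The phases of Cyp7a1, Por and Cyp2a5 lay within 1 h of that of Alas1. Cyp8b1, the sterol 12α-hydroxylase of bile acid synthesis, was called at another phase, 1.12 h, with a difference of 1.56 (edgeR adjusted p = 7.20e-06). It was read at 192 and 231 CPM at CT4 and at 65.7 and 87.2 CPM at CT12.

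**Figure D5:**
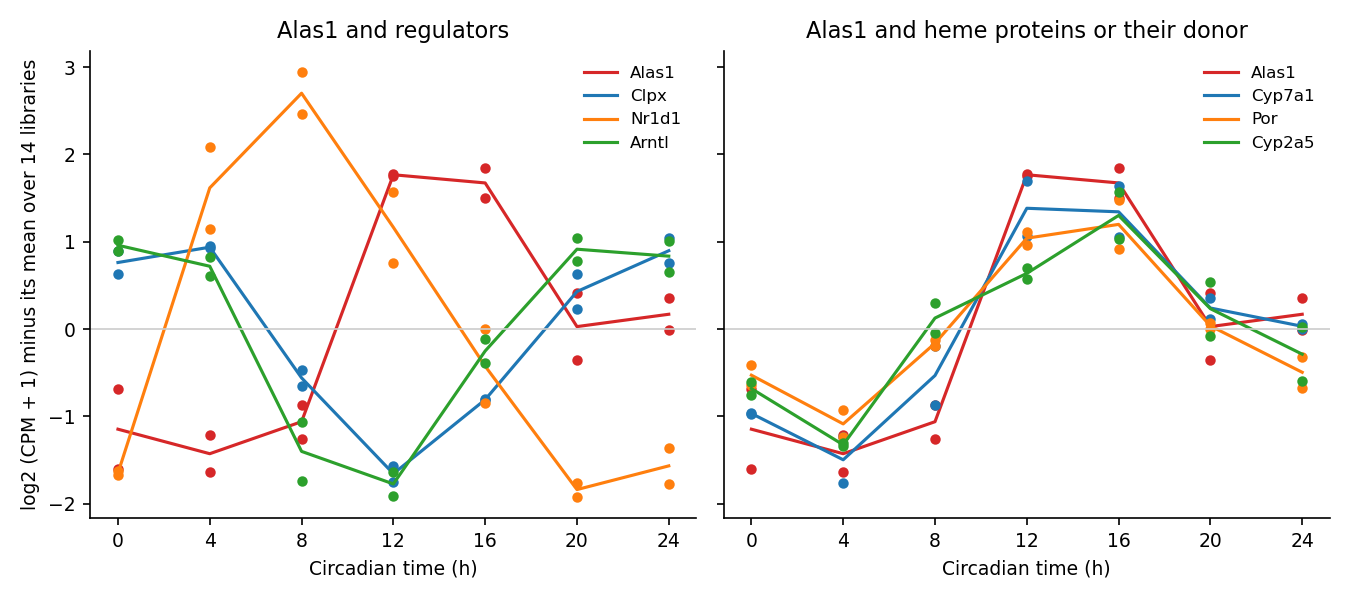
Level of Alas1 (red) beside Clpx, Nr1d1 and Arntl (left) and beside Cyp7a1, Por and Cyp2a5 (right), as log2 of CPM plus 1 minus the mean over 14 libraries, against circadian time in hours. Points are libraries and lines join the means of 2 mice. Clpx and Arntl were lowest at CT12, where Alas1 was highest. The genes on the right were high at CT12 and CT16 as Alas1 was. Cyp7a1, Por and Cyp2a5 were above their CT4 levels already at CT8.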

How the data were processed

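The authors deposited raw counts of ribosome-protected reads for 28167 RefSeq transcripts in 14 libraries, split into 5′UTR, coding and 3′UTR reads, with the region lengths. By the methods of the study, adapters were clipped, rRNA reads removed with Bowtie (2.1.0.0 in the submitters' processing notes), the rest aligned to mm10, and SAMtools 0.1.19.0 used. By the same methods only reads with one genomic location were kept, each counted at the nucleotide of its A site. Reads in sequence that transcripts of a gene share appear in full in each of them, as the equal coding counts of both Alad transcripts show. CT16 replicate 2 was sequenced again, and per the labels those reads are in its only file.

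Counts were summed over regions, and the transcript with the highest mean stood for a gene. R 4.3.3 with edgeR 4.0.16 (TMM, cosine of 24 h), limma 3.58.1 and DESeq2 1.42.0 were used, with adjustment over all transcripts. JTK_CYCLE was rewritten in Python 3.11 with equal reference values tied, and its adjusted P covers only the phases tried within a transcript. The edgeR cosine fit, the limma fits of both kinds of ratio, the DESeq2 test and JTK_CYCLE were tried on simulated counts. There the ratio between transcripts was taken to a steady transcript, which Alas1 is not. CPM and log2 ratios used pseudocounts of 1 and 0.5 for limma. Symbols matched 27836 transcripts. Members, context lists and tests were chosen with earlier results of these data known. Of the lists, 2 genes are not reported here. Named genes were the 9 members, the 5 genes most correlated with Alas1, and at most 4 called genes per context list with the largest peak-to-trough difference, and other genes of the lists that are named were chosen after their values were seen. In log2 CPM, same-numbered mice deviated together only weakly (median r 0.0309, from -0.123 to 0.302 over 21 pairs of times, 3 above 0.1). The 5′UTR shares were not part of that check. Alternatives were other scalings, count minimums, regions, tests, a replicate block, and each library or time left out.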

Additional observations from a re-analysis of the deposited data

How the results depend on the processing

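Alas1 was called in each edgeR and DESeq2 fit tried. Its peak-to-trough difference stayed between 3.03 and 3.14 on the log2 scale over 11 other settings, between 2.91 and 3.34 without single libraries and between 2.75 and 3.61 without single times, and its phase between 14.5 and 16.6 h. The number of the 9 genes called was 2, and it fell to 1 (Alas1) with the total count, with the total without Mup, with a count minimum of 1 and with time as a factor. It was 1 to 2 when a library or a time was left out. JTK_CYCLE with a Benjamini-Hochberg q under 0.05 gave 1 (Fech) on TMM-scaled CPM and 0 on CPM by the total count, where its adjusted P called 2 (Alas1 and Uros). The replicate block left the number at 2, the ratios to Alas1 at 6 and the 5′UTR ratios at 0, and changed no call among the 9 genes. The cause of these moves was not tested. All 6 ratios to Alas1 were called, and 0 of the 5′UTR to CDS ratios, under each alternative tried for them. Depth limits Uros and Ppox most, with means of 171 and 201 counts per library.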

Other observations

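Carriers and partners of heme and porphyrins were called by edgeR in 2 of 16 cases tested (12.5%, against 11.3% of all transcripts), and their median difference from trough to peak was 0.45 (log2). Tmem14c, which moves a porphyrin precursor in mitochondria of red cell precursors, had a difference of 0.64 and a phase of 21.5 h (adjusted p = 0.0179), and was read at 53.9 and 53.0 CPM at CT0 and at 32.8 and 29.1 CPM at CT8. Pgrmc2, a heme-binding chaperone, had a difference of 0.65 and a phase of 23.8 h (adjusted p = 0.0211). With time as a factor neither was called (0.0897 and 0.125, against 7.08% of all transcripts called). Under the total count edgeR called 3 of 16, against 8.25%. JTK_CYCLE called 4 of 16 on TMM-scaled CPM (16.7% of all transcripts) and 6 of 16 on CPM by the total count (17.6%). Without CT8 replicate 2 the adjusted p of Tmem14c was 0.0673, and that of Pgrmc2 was 0.0637, 0.0609 and 0.0667 without CT0 replicate 1, CT0 replicate 2 and CT12 replicate 1. Of 5 plasma proteins and receptors that bind heme or hemoglobin (Hpx, Hp, Ambp, Cd163 and Lrp1), 0 were called by edgeR (11.3% of all transcripts) and 1 by JTK_CYCLE on TMM-scaled CPM (16.7% of all transcripts), Lrp1 with an adjusted P of 0.0382. On CPM by the total count, where JTK_CYCLE called 17.6% of all transcripts, 0 of 5 were called and Lrp1 was at 0.457. Hemopexin (Hpx) was read at 1881 to 4604 CPM.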
